A study of Mus musculus with 2 samples.

Results

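The genes described here are 37 genes of glycolysis and of the response to low oxygen, listed by symbol: 21 glycolytic enzymes and transporters, 12 targets of hypoxia-inducible factor (HIF) outside glycolysis, and 4 genes of oxygen sensing. Of these, 33 had at least 1 probe set that the array's annotation assigns to that gene alone, 73 probe sets in all, out of 18193 genes measured that way. They were read on 2 single-colour Affymetrix arrays of mouse regulatory T cells (Tregs), sorted on CD25 and Foxp3, that had been induced in vivo through dendritic cells (DCs) and taken after immunization. Of the 2 arrays, 1 held Hopx-sufficient cells and the other Hopx-/- cells, called Hopx-deficient below. Hopx encodes a small homeodomain protein that acts as a transcription cofactor without binding DNA itself. Strain, age, how many mice went into an array and which part of Hopx was deleted are not given in the sources used here.

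Glycolysis turns glucose into pyruvate and yields ATP, and lactate dehydrogenase converts pyruvate to lactate, which monocarboxylate transporters carry out of the cell. HIF is a transcription factor whose alpha subunit is made continuously but, with oxygen present, is hydroxylated by the EGLN enzymes, bound by the VHL protein and degraded. When it is stable it binds the motifs ACGTG and GCGTG and raises many glycolytic genes together with genes for collagen hydroxylation, mitophagy, pH control and blood vessel growth. Activated effector T cells use glycolysis heavily, while Tregs are known to rely more on mitochondrial oxidation.

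Every value is a log2 difference, Hopx-deficient minus Hopx-sufficient, averaged over the probe sets of a gene, or the fold that corresponds to it. A gene said to be lower or higher was so on the Hopx-deficient array. There was 1 array per genotype, so no difference has a replicate error and none was tested; the only spread available is that between probe sets of the same gene, whose pooled SD was 0.18 over all genes. The deposited values were centred on the mean of the 2 arrays, so each gene's values are mirror images and hold no signal level. Fewer cells of a type and less RNA per cell cannot be told apart.

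The check of the labels held: Hopx differed by -5.15, or 35.6-fold. The median over all 18193 genes was 0.00, and their SD was 0.21. The 18 probe sets of the hybridization spike-ins, non-mouse RNAs added at hybridization, had a median of -0.12; the lowest stood at -0.22 and the highest at 0.01. Macrophage markers were higher in 7 of 8 measured cases, with a median of 0.35 and a range from -0.38 (Lyz2) to 0.89 (Mrc1). B cell markers were lower in 5 of 5 (median -0.21), DC markers lower in 4 of 5 (-0.05), CD8 T and NK cell markers lower in 3 of 4 (-0.18), and T cell markers higher in 4 of 6 (0.22). Erythroid markers, with 2 measured, had a median of 0.02. Since the centred values hold no levels, whether these markers were detected cannot be given. What part these other cells had in the values below was not tested.

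The promoters of the members that differed most show how unevenly the HIF motifs are spread among them. The 250 bases before the annotated start are given for the 3 lowest glycolytic genes (Hk2, Tpi1 and Pkm), for the 3 highest HIF targets (P4ha2, P4ha1 and Kdm3a) and for the lowest HIF target, Higd1a. They are RefSeq sequences of the mouse assembly GRCm38.p6, written 5′ to 3′ on the strand of the gene, with capitals marking ACGTG or GCGTG on either strand.
Hk2 (chr6:82774455-82774704, minus strand): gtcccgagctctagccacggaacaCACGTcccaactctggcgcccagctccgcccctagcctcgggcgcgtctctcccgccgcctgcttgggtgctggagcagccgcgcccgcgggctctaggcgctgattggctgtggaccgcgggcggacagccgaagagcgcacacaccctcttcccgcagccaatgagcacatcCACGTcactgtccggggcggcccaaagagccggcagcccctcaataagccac
Tpi1 (chr6:124814159-124814408, minus strand): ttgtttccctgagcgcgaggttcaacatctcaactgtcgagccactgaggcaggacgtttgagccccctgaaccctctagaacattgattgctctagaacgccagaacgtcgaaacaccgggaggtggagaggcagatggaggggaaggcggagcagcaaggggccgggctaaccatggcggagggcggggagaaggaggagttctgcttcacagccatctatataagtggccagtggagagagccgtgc
Pkm (chr9:59656326-59656575, plus strand): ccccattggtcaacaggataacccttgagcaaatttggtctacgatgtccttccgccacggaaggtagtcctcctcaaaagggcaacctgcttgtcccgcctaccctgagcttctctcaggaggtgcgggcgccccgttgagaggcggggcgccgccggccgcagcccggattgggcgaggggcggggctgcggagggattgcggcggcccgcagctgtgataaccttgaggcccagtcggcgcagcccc
P4ha2 (chr11:54100674-54100923, plus strand): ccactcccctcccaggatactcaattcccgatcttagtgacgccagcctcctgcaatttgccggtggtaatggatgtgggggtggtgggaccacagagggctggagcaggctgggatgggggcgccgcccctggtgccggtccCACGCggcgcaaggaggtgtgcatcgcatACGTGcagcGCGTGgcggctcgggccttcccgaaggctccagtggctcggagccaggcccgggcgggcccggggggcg
P4ha1 (chr10:59323046-59323295, plus strand): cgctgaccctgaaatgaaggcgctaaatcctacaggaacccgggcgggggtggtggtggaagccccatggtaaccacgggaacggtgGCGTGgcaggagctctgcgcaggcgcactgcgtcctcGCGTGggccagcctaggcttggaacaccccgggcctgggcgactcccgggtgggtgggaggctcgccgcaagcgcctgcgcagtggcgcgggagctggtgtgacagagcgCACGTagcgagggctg
Kdm3a (chr6:71632918-71633167, minus strand): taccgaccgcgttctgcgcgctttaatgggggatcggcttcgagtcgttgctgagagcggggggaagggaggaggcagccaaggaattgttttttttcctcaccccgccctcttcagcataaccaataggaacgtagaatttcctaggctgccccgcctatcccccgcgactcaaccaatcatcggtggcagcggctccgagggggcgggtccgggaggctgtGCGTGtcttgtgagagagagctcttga
Higd1a (chr9:121857797-121858046, minus strand): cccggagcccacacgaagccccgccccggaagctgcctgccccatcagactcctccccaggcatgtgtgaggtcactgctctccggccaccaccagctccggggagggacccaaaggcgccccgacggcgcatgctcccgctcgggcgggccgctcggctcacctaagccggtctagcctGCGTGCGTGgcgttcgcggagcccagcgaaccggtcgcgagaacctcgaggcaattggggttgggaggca

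The window of Hk2 held 2 stretches with a HIF motif, and those of Tpi1 and Pkm held none. P4ha2 and P4ha1 held 3 stretches each in the bases shown, Kdm3a 1 and Higd1a 1, the last a run in which 2 copies of GCGTG overlap. Over the longer window of 300 bases, which adds the first 50 transcribed bases, 20 of the 32 measured members with a RefSeq window held ACGTG (62.5%), against 23.2% of 14452 measured genes. The motif GCGTG was in 56.2% of the members' windows and in 44.4% of all. Both counts cover both strands, and 1 window was taken per gene, the one nearest the annotated 5′ end. ACGTG overlaps the motif CACGTG, known from MYC and its relatives, which was in 5 of the 32 member windows (15.6%) and in 9.04% of all. The members' windows were also richer in G and C, with a median of 65.2% against 58.7%, and in CG pairs, with a median of 24.5 against 17.0. The motif ACGTG was held by 14 of 22 lower members (63.6%) and by 6 of 10 higher members (60.0%), and GCGTG by 12 of 22 lower (54.5%) and 6 of 10 higher members (60.0%). Many members were listed because they are HIF targets, so a share of HIF motifs above that of all genes is no independent result. A match of letters is a description and does not show binding, and an empty window does not show that a gene lacks sites elsewhere.

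Glycolytic genes were mostly lower in Hopx-deficient cells. Of the 18 measured, 15 were lower and 3 higher, where 49.9% of all genes were lower by any amount. Their median was -0.26, beside 0.00 for all genes, with an interquartile range from -0.35 to -0.12. By the size rule of 1.5-fold, 1 of the 18 was lower and none was higher, where 1.31% of all genes were lower and 0.297% higher by that much. With 1.3-fold as the rule, 4 were lower and none higher, against 4.84% and 2.4% of all genes. The differences were therefore small and mostly of 1 sign. Of the 18, 10 were lower than the lowest spike-in probe set, where 13.0% of all genes were. Another 5 lay within the spike-in range and 3 above it, where 48.4% of all genes lay above it.

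**Figure D1:**
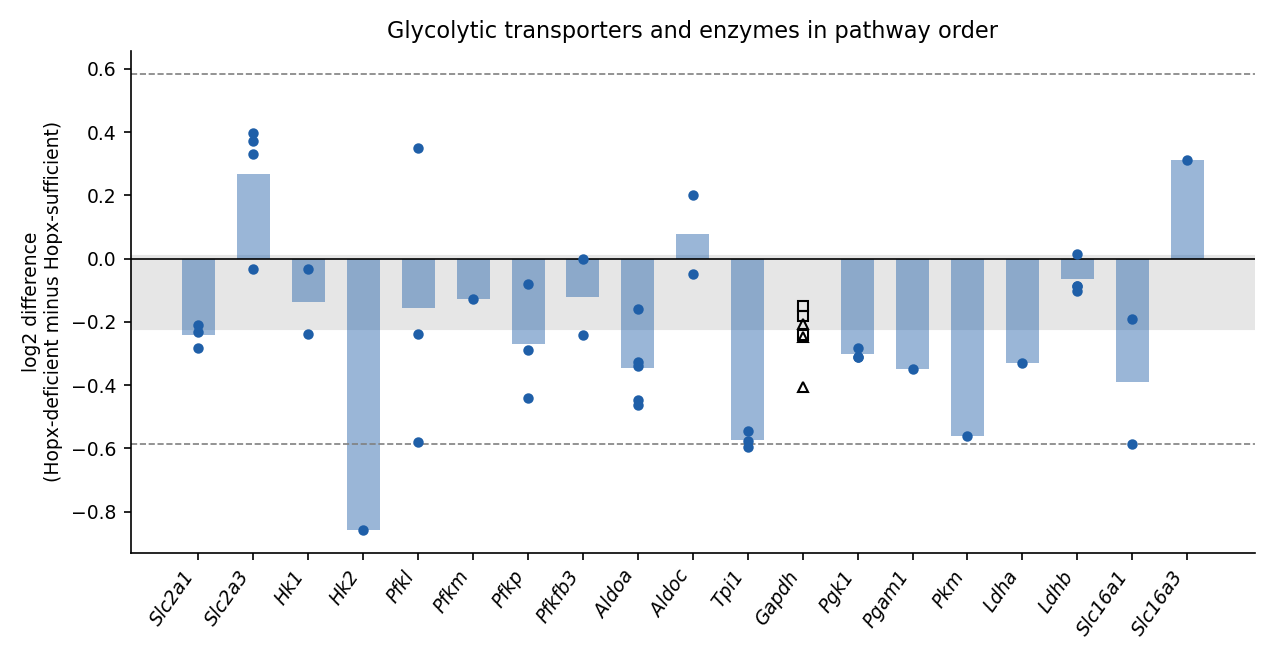
Log2 differences (Hopx-deficient minus Hopx-sufficient) of glycolytic genes in pathway order from glucose uptake to lactate export. Bars are gene means and dots single probe sets; for Gapdh, which has no probe set of its own, open triangles are probe sets it shares with other genes and open squares control probe sets. The grey band is the spike-in range from -0.22 to 0.01, and dashed lines mark 1.5-fold. Hk2 is the lowest, and only Slc2a3, Aldoc and Slc16a3 have means above 0.

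Glucose enters T cells through the transporters GLUT1 (Slc2a1) and GLUT3 (Slc2a3), and their genes differed in opposite directions. Slc2a1 stood at 0.12 on the Hopx-sufficient and -0.12 on the Hopx-deficient array in the deposited values, a difference of -0.24 (1.18-fold lower). Its 3 probe sets lay close together, between -0.28 and -0.21. Slc2a3 stood at -0.14 and 0.14, a difference of 0.27 (1.20-fold higher), with 4 probe sets between -0.03 and 0.40. The probe set at -0.03 is the only one of Slc2a3 without a suffix that marks possible cross-hybridisation or shared transcripts. The gene's direction thus rests on the other 3.

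The first enzymatic step showed the largest difference among all the members. Hk2, the inducible hexokinase that traps glucose in the cell as glucose 6-phosphate, had deposited values of 0.43 and -0.43, a difference of -0.86 (1.81-fold lower), and was the 47th lowest of 18193 genes. It was read by 1 probe set, so no second value bears on it. Hk1, the hexokinase found in most cells, differed by -0.14, with probe sets at -0.24 and -0.03. A further probe set, which the annotation shares between Hk1 and ribosomal protein genes, stood at 0.06.

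Phosphofructokinase, which commits sugar to glycolysis, is encoded by a family whose members were all slightly lower. The platelet form Pfkp was at -0.27, with 3 probe sets between -0.44 and -0.08. The muscle form Pfkm was at -0.13 by 1 probe set. The liver form Pfkl had a mean of -0.15, but its 3 probe sets ran from -0.58 to 0.35, so its sign differs between probe sets. Pfkfb3 makes fructose 2,6-bisphosphate, the activator of phosphofructokinase, and was at -0.12, with probe sets at -0.24 and 0.00. None of these 4 genes was as low as Hk2.

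The enzymes from triose phosphate to pyruvate that had a value of their own were all lower. Tpi1, which interconverts the triose phosphates, had deposited values of 0.28 and -0.28, a difference of -0.57 (1.49-fold lower). The SD over its 3 probe sets was 0.03. Pkm, pyruvate kinase, had deposited values of 0.28 and -0.28 as well and differed by -0.56 (1.48-fold lower) by 1 probe set. After Hk2, these were the lowest members, each just short of 1.5-fold, and they ranked 262nd and 276th lowest of all genes. The phosphoglycerate mutase gene Pgam1 differed by -0.35 by 1 probe set. Pgk1, phosphoglycerate kinase, was at -0.30 with an SD of 0.02 over 3 probe sets.

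Aldolase, which splits the 6-carbon sugar, differed by form: Aldoa was at -0.35, with all 5 probe sets between -0.46 and -0.16, and Aldoc, the form known from brain, was at 0.08 with probe sets at -0.05 and 0.20. All 5 probe sets of Aldoa carry a suffix for possible cross-hybridisation. All those of Hk1, Tpi1, Pgam1, Ldha, Ldhb and Higd1a likewise carry a suffix for possible cross-hybridisation or shared transcripts. Gapdh had no probe set of its own. The 3 control probe sets for it ranged from -0.24 to -0.15, and the 3 that it shares with pseudogenes and related loci from -0.40 to -0.21. The 3′ minus 5′ difference of the Gapdh control probe sets changed by -0.09 between the arrays, and that of beta-actin by 0.00. These values compare the 2 arrays only. As the centred values hold no level, the integrity of either RNA cannot be given. Gpi1 and Eno1 were not analysed here.

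At the end of the pathway the genes for making and moving lactate differed by form. Ldha, the lactate dehydrogenase subunit that favours lactate production, had deposited values of 0.16 and -0.16, a difference of -0.33 (1.26-fold lower) by 1 probe set. Ldhb, the subunit of oxidative tissues, was at -0.06 with 4 probe sets between -0.10 and 0.02. Of the lactate transporters, Slc16a1 (MCT1) was at -0.39 and Slc16a3 (MCT4) at 0.31. The probe sets of Slc16a1 were unequal, at -0.59 and -0.19, and Slc16a3 had 1 probe set. Slc16a3 was the highest of the glycolytic genes.

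**Figure D2:**
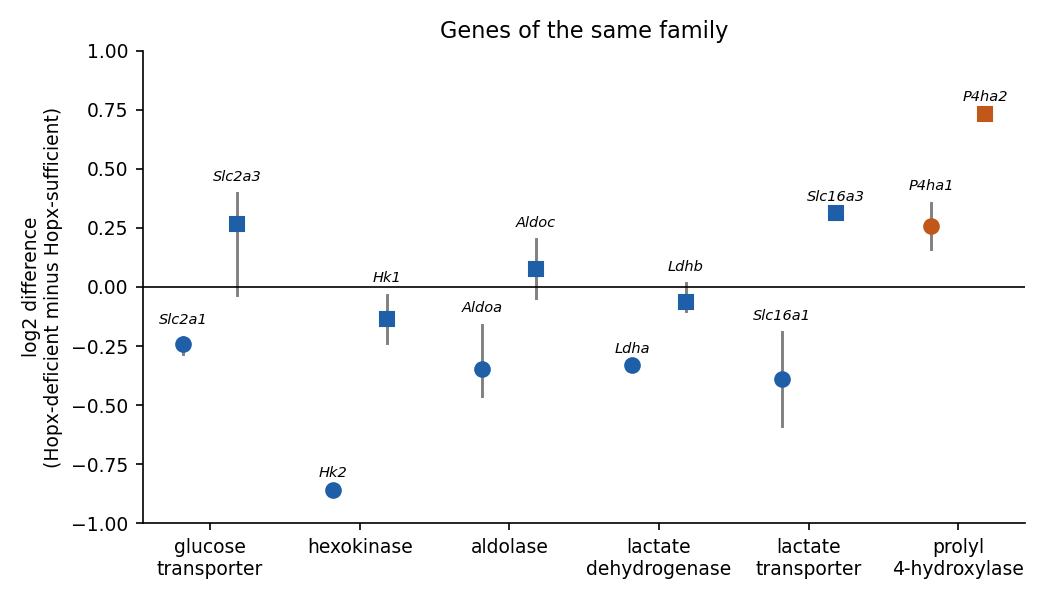
Log2 differences of genes of the same family, each symbol a gene mean and each grey line the range of its probe sets; blue marks glycolytic genes and orange HIF targets. In the glucose transporter, aldolase and lactate transporter families 1 gene lies below 0 and the other above, as in Slc16a1 at -0.39 and Slc16a3 at 0.31.

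Set side by side, the members of 5 glycolytic families lay more than 0.18 apart, the pooled SD between probe sets of a gene. The phosphofructokinase genes did not. That SD describes single probe sets and not pairs of genes, and the SD over all genes was 0.21. The share of all gene pairs that lie this far apart was not computed, so the gaps are a description. Hk2 minus Hk1 gave -0.72, Slc16a1 minus Slc16a3 -0.70, Slc2a1 minus Slc2a3 -0.51, Aldoa minus Aldoc -0.42 and Ldha minus Ldhb -0.27. Pfkp minus Pfkl was -0.12 and Pfkp minus Pfkm -0.14. These are differences of log2 differences and say nothing of which gene is expressed more. With 1 array per genotype none of them was tested.

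The 4 genes that control HIF differed by 0.17 or less in either direction. Hif1a, the oxygen-regulated subunit, was at -0.13 with 4 probe sets, all below 0, between -0.21 and -0.02. The prolyl hydroxylase genes Egln1 and Egln3, which mark HIF for degradation, were at -0.11 and -0.08, each with 1 probe set on either side of 0. Vhl, the recognition subunit of the ubiquitin ligase that destroys HIF, was at 0.17 with probe sets at 0.09 and 0.25. None of the 4 means lay further from 0 than the pooled SD between probe sets, and their median was -0.10. HIF is controlled mainly through protein stability, which these arrays do not read.

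HIF targets outside glycolysis were divided. Of 11 measured, 7 were higher and 4 lower, with a median of 0.11 and a mean of 0.03, where 50.1% of all genes were higher by any amount. Among them 1 was at least 1.5-fold higher and none lower by that much, where 0.297% and 1.31% of all genes were. The lower 4 lay between -0.44 and -0.32 and the higher 7 between 0.09 and 0.73, with none in between. This gap belongs to the 11 listed genes. The 24 other HIF targets described below had a median of -0.02 and an interquartile range from -0.16 to 0.11. That of all genes ran from -0.12 to 0.12, and the share of all genes inside the gap was not computed. Of the 11, 4 lay below the spike-in range and 7 above it, where 13.0% and 48.4% of all genes did. None lay within it.

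**Figure D3:**
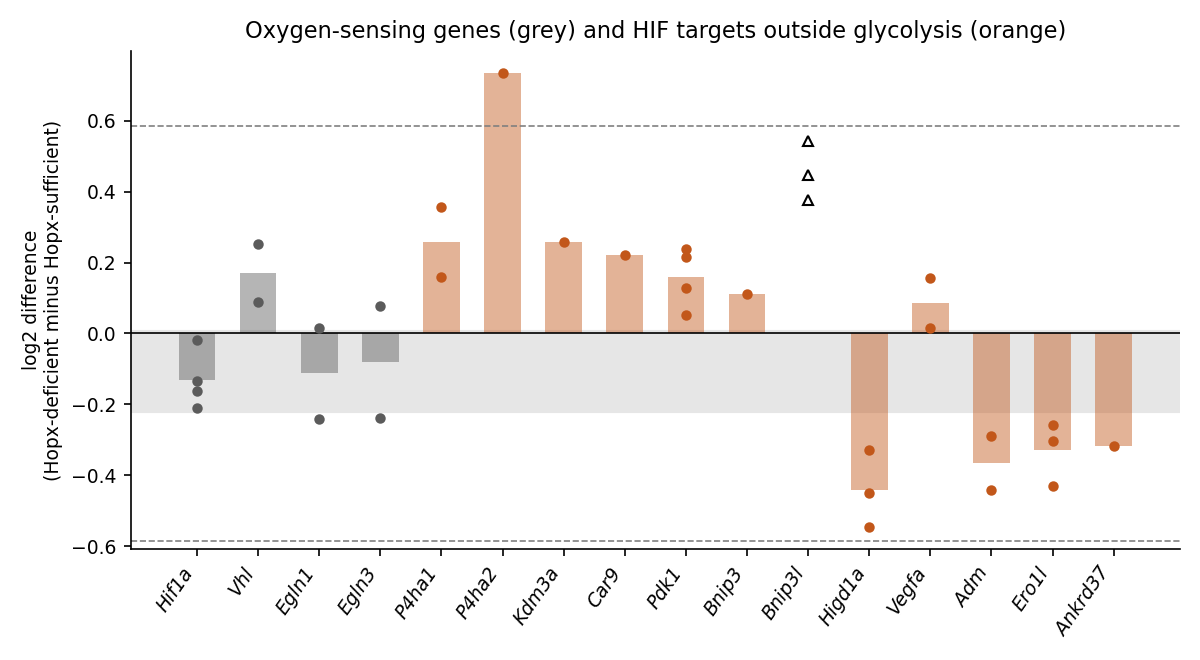
Log2 differences of 4 oxygen-sensing genes and of HIF targets outside glycolysis. Bars are gene means and dots single probe sets; open triangles are the 3 probe sets shared by Bnip3l and its pseudogene, the grey band is the spike-in range and dashed lines mark 1.5-fold. P4ha2 at 0.73 is the only mean past a dashed line, and Higd1a, Adm, Ero1l and Ankrd37 lie below -0.3.

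The higher targets were led by the collagen prolyl 4-hydroxylases, whose promoters are printed above. P4ha2 encodes a catalytic alpha subunit of that enzyme, which hydroxylates proline in new collagen chains. Its deposited values were -0.37 and 0.37, a difference of 0.73 (1.66-fold higher), and it was the 15th highest of 18193 genes by 1 probe set. P4ha1, the other alpha subunit measured, was at 0.26 (1.20-fold higher), with probe sets at 0.16 and 0.36. Both subunits were thus higher, and P4ha2 minus P4ha1 was 0.48.

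Kdm3a, a histone H3 lysine demethylase, was at 0.26 by 1 probe set, and Car9, a carbonic anhydrase, at 0.22 by 1 probe set. Pdk1, the kinase that inactivates pyruvate dehydrogenase and so keeps pyruvate out of the mitochondrial cycle, was at 0.16, and its 4 probe sets all lay above 0, between 0.05 and 0.24. Bnip3, a receptor for mitophagy, was at 0.11 by 1 probe set. Its relative Bnip3l has no probe set of its own, but the 3 that it shares with its pseudogene Bnip3l-ps were at 0.38 to 0.54. Vegfa, the growth factor for blood vessels, was at 0.09, with probe sets at 0.02 and 0.16.

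The 4 lower targets all lay below the glycolysis median. Higd1a, a small protein of the inner mitochondrial membrane, had deposited values of 0.22 and -0.22, a difference of -0.44 (1.36-fold lower), and its 3 probe sets ran from -0.55 to -0.33. Adm, which encodes the peptide hormone adrenomedullin, was at -0.37, with probe sets at -0.44 and -0.29. Ero1l (now Ero1a), the oxidase that drives disulfide formation in the endoplasmic reticulum, was at -0.33 with 3 probe sets between -0.43 and -0.26. Ankrd37, an ankyrin repeat gene, was at -0.32 by 1 probe set. In the 3 of these genes with more than 1 probe set, all probe sets were below 0.

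**Figure D4:**
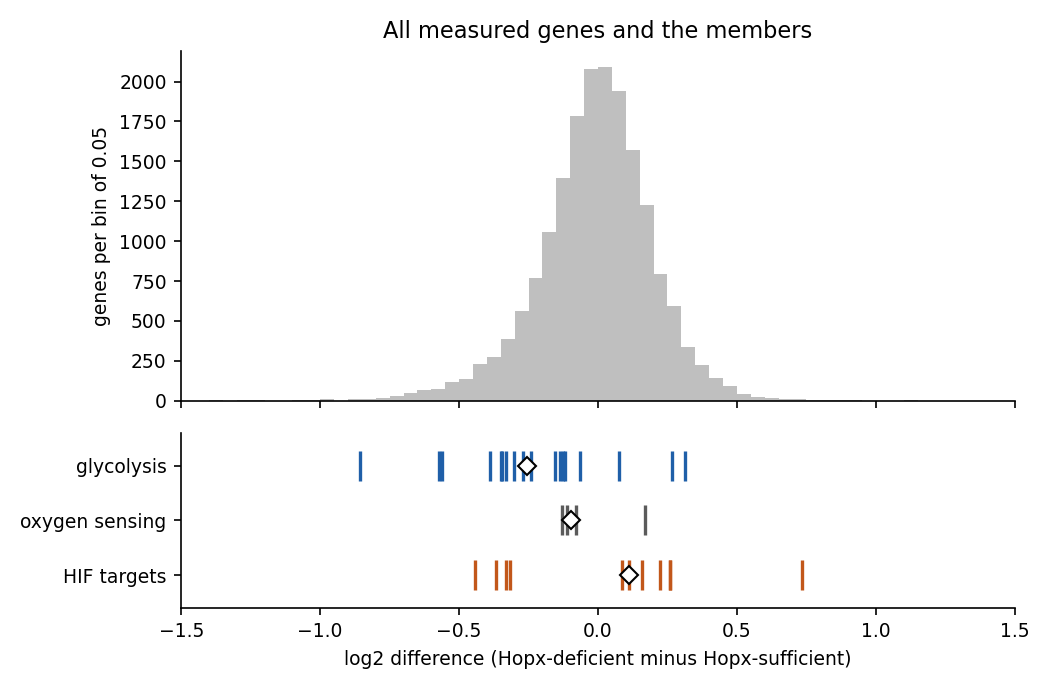
Top, log2 differences of all 18193 measured genes in bins of 0.05 (genes beyond the axis, such as Hopx, are not drawn); bottom, each measured member as a tick with the group median as a diamond. The glycolysis median lies at -0.26 and the HIF target median at 0.11, and the HIF targets among the members leave a gap around 0. The further HIF targets described below, with a median of -0.02, have no ticks.

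Among the members, glycolytic genes and HIF targets outside glycolysis thus had medians that differed by -0.37. The groups overlapped: 4 of the 11 HIF targets lay below the glycolysis median, 2 of the 18 glycolytic genes lay above the HIF target median, and P4ha2 alone lay above every glycolytic gene. The difference of the means was smaller, at -0.27. With 1 array per genotype this difference has no error over samples. In the further lists described below the medians lay closer together, at -0.08 for 20 other glycolytic genes and -0.02 for 24 other HIF targets. The contrast therefore describes the listed members and not these pathways in general. The motif ACGTG was in 58.8% of the glycolytic windows and in 63.6% of those of the HIF targets, while GCGTG was in 47.1% and 81.8%. Among the HIF targets ACGTG was in 3 of the 4 lower and in 4 of the 7 higher genes, and GCGTG in 4 of the 4 lower and in 5 of the 7 higher.

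Further genes of these pathways, listed by function, lay nearer to 0 than the glycolytic members. Of 20 other glycolytic isoforms and regulators 13 were lower, with a median of -0.08. The most different were Pgk2 (-0.47) and Gapdhs (-0.30), isoforms known from sperm, and the monocarboxylate transporter gene Slc16a7 (-0.29), each by 1 probe set. Of 6 pentose phosphate genes 4 were lower (median -0.07). Pgd, which encodes 6-phosphogluconate dehydrogenase, was at -0.27 with 4 probe sets between -0.37 and -0.22, Tkt, transketolase, at -0.12 and Rpe, an epimerase, at 0.11.

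Genes for the entry of pyruvate into mitochondria were lower in 9 of 12 cases, with a median of -0.13. Dlat, a core subunit of the pyruvate dehydrogenase complex, was at -0.41, with 3 probe sets between -0.48 and -0.30, and Pdhx, another component of that complex, at -0.35. The kinase gene Pdk2 was at -0.29, where Pdk1 was at 0.16. Of the other kinases of this family, Pdk4 was at 0.26 and Pdk3 at -0.05, so the 4 kinase genes lay on both sides of 0.

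Among 10 other oxygen-sensing genes 7 were lower, with a median of -0.02. Epas1, which encodes the HIF-2 alpha subunit, was at -0.17, Eloc, an elongin of the VHL ligase, at -0.17 and Arnt, the constant partner of the HIF alpha subunits, at 0.17. The probe sets of Arnt ran from -0.19 to 0.51 and those of Eloc from -0.43 to 0.31. A further 24 HIF targets were split evenly, 12 higher and 12 lower, with a median of -0.02. Pgf, a vessel growth factor, was at 0.35, Car12, a carbonic anhydrase, at -0.31 and Fam162a at -0.30. None of the genes in these 5 lists was 1.5-fold apart, where 1.31% of all genes were lower and 0.297% higher by that much. With shares this small, few or none would be met in lists of this size.

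**Figure D5:**
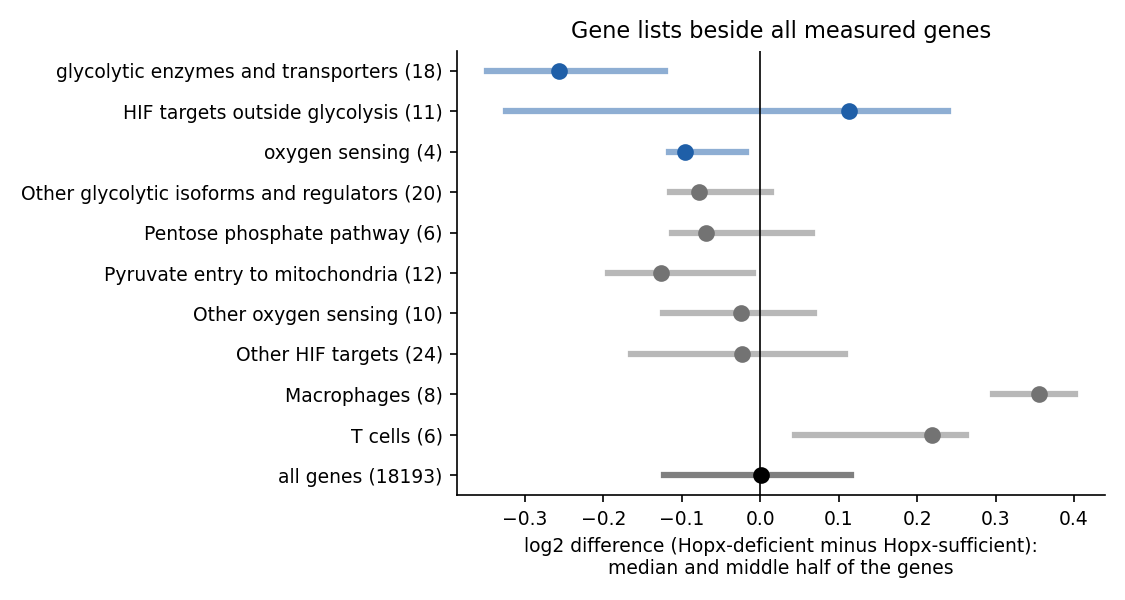
Median (dot) and interquartile range (line) of the log2 difference in each gene list, with the number of measured genes in brackets. The glycolytic members have the lowest median of the lists drawn, at -0.26, and the macrophage markers the highest, at 0.35. Marker lists not drawn had medians of -0.21 (B cells), -0.18 (CD8 T and NK cells), -0.05 (DCs) and 0.02 (erythroid cells).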

How the data were processed

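Total RNA was isolated with Trizol, cleaned up with QIAGEN reagents and labelled with biotin, per the labels' protocols. The authors deposited log2-type values for 45101 probe sets, in which every probe set had been centred on its own mean over both arrays: the columns are mirror images (largest row sum 1e-06). The column medians were -0.0076 (Hopx-sufficient) and 0.0076 (Hopx-deficient). Summarisation, normalization between arrays and the log base are not given in the sources used here. Base 2 was assumed; with natural logs every difference would be 1.44 times as large.

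Gene names came from the array's annotation of 2016, with symbols updated by gene ID (34741 of 34945 matched, GRCm38.p6). Another 932 with several symbols, 9160 without a symbol and 64 controls stayed out of gene means. The difference was centred on its median over named probe sets (0.0075) and averaged over the probe sets of a gene. A 1.5-fold threshold is a rule of size. The members and lists were chosen with earlier results of these data known. All members are named, and of each other pathway list the 3 most different genes. Of the marker lists the rule would name 3 genes each, but only the extremes of the macrophage list are named. These, Pdk3 and Pdk4 were picked with their values known. The gene means were checked on simulated data. Python 3.11.15, numpy 2.4.6, pandas 2.3.3 and matplotlib 3.10.9 were used. The number of arrays limits the precision.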

Additional observations from a re-analysis of the deposited data

How the results depend on the processing

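No paired analysis was possible because there is a single array for each genotype, which also means that neither could be left out. The glycolysis median ran from -0.37 to -0.23 and the HIF target median from 0.09 to 0.16 over 10 alternatives each (centring, the summary over probe sets, probe set filters, natural logs, and the grouping of Pdk1, the Egln genes and the transporters). The difference between these medians ran from -0.53 to -0.34 and the median of the oxygen-sensing genes from -0.22 to -0.09. None of the 4 changed sign, but several alternatives could not change it. Natural logs, which gave the ends at -0.37 and -0.53, only rescale. Leaving out the centring moves both medians alike, and some alternatives leave a group untouched. All alternatives used the listed members and none of the further lists. The count of members lower by 1.5-fold, 1 as reported, was 3 with the most different probe set of each gene and 4 with natural logs. At 1.3-fold it was 5 of 33, where 4.84% of all genes were lower by that much, and at 2-fold it was 0. The count of higher members, 1 as reported, was 0 at 2-fold. The most different probe set, natural logs and 2-fold also change the share over all genes, which was not computed for them. The changes in these counts are therefore not a result about the members. Of 224 values of single members under the alternatives, 222 kept their direction, but many could not change it. Natural logs only rescale a value, and a gene with 1 probe set has the same value under each summary over probe sets. The exceptions were Slc2a3 (-0.03) and Pfkl (0.35), both without probe sets whose suffix marks possible cross-hybridisation or shared transcripts. Hk1, Aldoa, Tpi1, Pgam1, Ldha, Ldhb and Higd1a have only such probe sets. They had no value under that filter, and its medians leave them out. The deposited values hold no signal level, so whether a dim probe set was detected could not be given.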
